A study of Mus musculus with 458 samples.

Results

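The cytosolic ribosome is built from ribosomal RNA and a fixed set of ribosomal proteins, each encoded by a gene of its own. Gene symbols beginning Rpl name proteins of the large subunit, which joins amino acids, and those beginning Rps name proteins of the small subunit, which reads the mRNA. Their mRNAs are short and abundant, begin with a run of pyrimidines, and are translated under the control of TOR signalling. Haematopoietic stem cells (HSCs) are known for a low and tightly kept rate of protein synthesis, and loss of 1 copy of several of these genes causes Diamond-Blackfan anaemia in humans. The genes described here were chosen by name: rows matching the symbol pattern of Rpl or Rps followed by a number, plus Rplp0, Rplp1, Rplp2 and Rpsa. This gave 85 of the 22645 genes in the table, 52 for the large and 33 for the small subunit, and 81 of them passed the filter on low values.

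The cells were single donor-derived HSCs of C57BL/6 mice, sorted as LSK CD150+CD48-CD45.2+ from the marrow of mice that had each received a single Vwf+ HSC. The recipients were followed over 16 weeks and grouped by the blood lineages that the transplanted cell restored. PLT mice had platelets alone (177 cells, 93 and 84 from mouse 1 and mouse 2). PEM mice had platelets, erythrocytes and myeloid cells (118 cells, 93 and 25), and MUL mice were multilineage (163 cells, 78 and 85). All groups share the strain, the sort and the transplantation. Every mouse holds 1 clone, so a difference between mice is also one between clones, and n = 2 mice per group throughout. The MUL mice share 1 experiment and the other 4 mice share none, so experiment and group cannot be told apart. The authors' table records a female sex for PLT mouse 2 and PEM mouse 2 and a male sex for the other mice.

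Values are RPKM, the reads of a gene per kilobase of its length, scaled to the reads of the cell. How far this makes levels of genes of different length comparable was not tested. The median of the short members lay below that of the long ones in every mouse, as given below. The median number of mapped reads per cell was 4.28 to 5.32 M in the 6 mice, and on the plates of PEM mouse 2 it was 3.2 M (P1) and 12.2 M (P2). Of 10 HSC markers, 9 or 10 had a mean of at least 1 RPKM in each mouse. The 10 summed to 1000 and 477 RPKM in PLT, 999 and 997 RPKM in PEM, and 712 and 1142 RPKM in MUL mice. Single markers differed in direction. Slamf1, which encodes CD150, had 78.3 and 35 RPKM in PLT, 65.8 and 41 RPKM in PEM, and 20 and 4.25 RPKM in MUL mice. Hoxa9 had 17.6 and 3 RPKM in PLT, 18.1 and 13.6 RPKM in PEM, and 28.4 and 23 RPKM in MUL mice. The 12 neutrophil markers summed to 216 and 3149 RPKM in PLT, 400.5 and 15158 RPKM in PEM, and 261 and 1391 RPKM in MUL mice, and from 4 to 7 of the 12 reached a mean of 1 RPKM. Of its precursor genes, Elane, Mpo and Ctsg were listed at 0 in every mouse, and Prtn3 had 220 and 61.9 RPKM in PLT, 367 and 55.6 RPKM in PEM, and 169 and 402 RPKM in MUL mice. Cells with 3 or more neutrophil markers above 0 numbered 13 in PLT mouse 1, 6 in PEM mouse 2, 12 in MUL mouse 2, and 2 or 3 in each other mouse. These 6 cells of PEM mouse 2 had summed ribosomal protein levels between 4530 and 254235 RPKM. At least 3 of 10 measured mature erythroid markers were above 0 in 17.2% and 22.6% of cells in PLT, 8.6% and 48% in PEM, and 30.8% and 23.5% in MUL mice, and at least 3 of 8 B cell markers in 12% of cells of PEM mouse 2 and in none of the other mice. For macrophage and monocyte markers, the share of cells with at least 3 of 10 measured above 0 was 48.4% and 50% in PLT, 79.6% and 60% in PEM, and 28.2% and 60% in MUL mice. Of the erythroid markers, the globin genes Hba-a2 and Hbb-b2 were listed at 0 in every mouse. Hba-a1 and Hbb-b1 had at most 0.208 and 1.32 RPKM (both PEM mouse 2), and Car2 had 1014 to 1854 RPKM over the mice.

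For a view of the DNA in front of these genes, the stretch from 60 bases before to 20 bases from the annotated start of transcription is shown for 7 of them, from RefSeq on build GRCm38.p6. Rpl38, Rpl37 and Rpl41 had some of the highest fold changes in PEM minus MUL, Rpl35 and Rps18 had the highest levels, and Rpl4 and Rplp0 hardly differed between PLT and MUL. Runs of at least 7 pyrimidines (C or T) are in capitals. The windows lie at chr11:114668520-114668599 (plus strand, Rpl38), chr15:5116553-5116632 (plus strand, Rpl37) and chr10:128549149-128549228 (minus strand, Rpl41). The others lie at chr2:39005112-39005191 (minus strand, Rpl35), chr17:33955646-33955725 (minus strand, Rps18), chr9:64173327-64173406 (plus strand, Rpl4) and chr5:115559407-115559486 (plus strand, Rplp0).
Rpl38: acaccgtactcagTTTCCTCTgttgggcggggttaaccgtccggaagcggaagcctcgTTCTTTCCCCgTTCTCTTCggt
Rpl37: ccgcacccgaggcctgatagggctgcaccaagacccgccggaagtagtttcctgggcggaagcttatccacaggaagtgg
Rpl41: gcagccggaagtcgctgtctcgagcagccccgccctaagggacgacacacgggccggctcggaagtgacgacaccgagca
Rpl35: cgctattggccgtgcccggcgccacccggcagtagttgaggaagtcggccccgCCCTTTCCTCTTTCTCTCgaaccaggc
Rps18: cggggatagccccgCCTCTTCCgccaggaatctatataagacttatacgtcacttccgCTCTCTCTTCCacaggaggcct
Rpl4: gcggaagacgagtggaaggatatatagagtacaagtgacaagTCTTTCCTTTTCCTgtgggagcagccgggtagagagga
Rplp0: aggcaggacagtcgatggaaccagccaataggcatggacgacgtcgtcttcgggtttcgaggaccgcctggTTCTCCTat

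A promoter entry, 250 bases before to 50 bases from the start, was matched for 64 of the 85 genes. The letters and windows searched were chosen after some of these promoters had been seen. A run of at least 8 pyrimidines within 30 bases of the start stood in 50% of the 64 entries, against 22.8% of all 27025 entries and 21.1% of the 8481 entries of tested genes. The letters CTTTCC on the gene's strand stood in 35.9% of them, against 14% of all entries and 14.6% of those of tested genes, and CCGGAAG on either strand in 39.1%, against 9.12% of all entries and 19.6% of those of tested genes. The letters GGGCGG on either strand stood in 60.9%, against 35.9% of all and 64.3% of tested genes, and TATAAA on the gene's strand in 9.38%, against 8.88% of all and 4.34% of tested genes. A CTTTCC can lie within a pyrimidine run, so those 2 counts overlap. Among the 30 tested members with the pyrimidine run the log2 fold changes given below had medians of 0.46 (PLT minus MUL) and 0.73 (PEM minus MUL), and among the 30 without it 0.59 and 0.78. The 23 with CCGGAAG had medians of 0.66 and 0.74, and the 37 without it 0.45 and 0.74.

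The level of the ribosomal protein genes was lowest in the MUL mice. Summed over the 85 genes, the mean RPKM per cell was 64871 and 89186 in PLT, 95020 and 86004 in PEM, and 58141 and 51751 in MUL mice. Both PLT and both PEM mice lay above both MUL mice, and PLT mouse 1 lay closer to the MUL mice than to PLT mouse 2. The group means were 77028 ± 17193 in PLT, 90512 ± 6375 in PEM and 54946 ± 4519 RPKM in MUL (SD, n = 2 mice each), a fold of 1.40 for PLT over MUL, 1.65 for PEM over MUL and 0.851 for PLT over PEM. An exact permutation test of 2 mice against 2 cannot give a two-sided p below 0.33, so the sums are given as values. As a share of all RPKM of a cell, the genes took a median of 12.2% and 14.5% in PLT, 14.2% and 13.3% in PEM, and 10.9% and 9.41% in MUL mice, in the same order of groups. The summed RPKM of all genes in a cell had medians of 529679 and 599684 in PLT and 550108 and 551378 in PEM mice. It was lowest in the MUL mice, at 508886 and 495608 RPKM. Mapped reads had medians of 4.82 and 4.87 M in PLT, 5.32 and 4.28 M in PEM, and 4.51 and 5.08 M in MUL mice. The authors' count of detected genes had medians of 1869 and 2596 in PLT, 3186 and 2752 in PEM, and 2209.5 and 2553 in MUL mice. The part of these measures in the differences was not tested. At least 3 of 8 megakaryocyte and platelet markers were above 0 in 9.68% and 38.1% of cells in PLT, 46.2% and 40% in PEM, and 11.5% and 9.41% in MUL mice. The 8 markers summed to 197 and 712 RPKM in PLT, 535 and 1531 RPKM in PEM, and 233 and 66.5 RPKM in MUL mice. In both values PLT mouse 1 lay below MUL mouse 1, although its ribosomal protein sum was higher. The part of these markers in the differences was not tested.

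A small number of cells stood far above the rest. In 9 of the 458 cells the summed level lay between 182217 and 534864 RPKM, which was 24% to 47.5% of the cell's RPKM, and the highest of all other cells had 137727 RPKM. Of these 9, 5 were cells of PEM mouse 1, 3 of PEM mouse 2 and 1 of MUL mouse 2, and no PLT cell was among them. The 3 of PEM mouse 2 were all among its cells with 3 or more neutrophil markers above 0. Such marker cells had at most 91170 RPKM in PEM mouse 1 and 110680 RPKM in MUL mouse 2. The high cells held 21.2% and 31.1% of the summed level of the 2 PEM mice. The median over cells, which they do not set, was 63515 and 86304 RPKM in PLT, 79639 and 76529 RPKM in PEM, and 55092 and 47834 RPKM in MUL mice. On the median, both PEM mice lay between the 2 PLT mice, and the MUL mice were again below the other 4. Between cells of a mouse the coefficient of variation of the sum was 20.9% and 22.2% in PLT, 78.1% and 65.2% in PEM, and 28.9% and 43.7% in MUL mice.

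**Figure D1:**
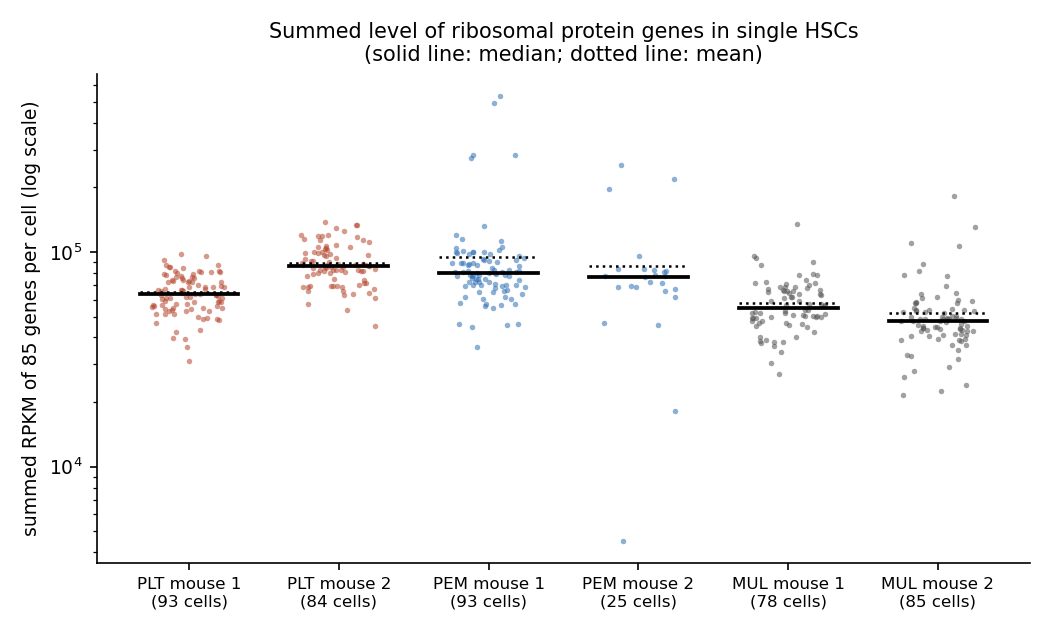
Each dot is 1 cell, placed by mouse (PLT, PEM, MUL from left to right) and by the summed RPKM of the 85 ribosomal protein genes on a log axis; solid lines are medians and dotted lines means. The medians of the MUL mice, 55092 and 47834 RPKM, lie below those of the other 4 mice, and the 9 cells above 150000 RPKM belong to PEM mouse 1, PEM mouse 2 and MUL mouse 2.

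The plates of a mouse, sequenced as P1 and P2, gave the same order for the comparisons with MUL. On plate P1 the mean sum was 69323 and 96310 RPKM in PLT, 91356 and 73650 RPKM in PEM, and 60990 and 48780 RPKM in MUL mice. On plate P2 it was 60322 and 81714 RPKM in PLT, 98605 and 101727 RPKM in PEM, and 54641 and 55092 RPKM in MUL mice. The MUL mice were below the PLT and PEM mice on either plate. The order of PLT and PEM differed between plates: the PEM mice overlapped the PLT mice on P1 and lay above both of them on P2.

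Large and small subunit genes differed between the groups to a like extent, with median log2 fold changes of 0.49 and 0.55 in PLT minus MUL, 0.74 and 0.76 in PEM minus MUL, and -0.26 and -0.21 in PLT minus PEM. In summed level the large subunit had 37020 and 47922 RPKM in PLT, 52025 and 47104 RPKM in PEM, and 32627 and 28512 RPKM in MUL mice. The small subunit had 27851 and 41263 RPKM in PLT, 42994 and 38900 RPKM in PEM, and 25514 and 23239 RPKM in MUL mice. The sum of the small subunit was 0.752 and 0.861 of that of the large one in PLT, 0.826 and 0.826 in PEM, and 0.782 and 0.815 in MUL mice. PLT mouse 1 had the lowest and PLT mouse 2 the highest of these ratios, so the 2 mice of that group bracket the other 4. A median gene of the large subunit was below a median gene of the small subunit, by 0.20 and 0.44 on the log2 scale in PLT, 0.44 and 0.45 in PEM, and 0.41 and 0.43 in MUL mice. Across the cells of a mouse the 2 sums were correlated, with Spearman's rho of 0.69 and 0.89 in PLT (93 and 84 cells), 0.91 and 0.83 in PEM (93 and 25 cells), and 0.86 and 0.82 in MUL mice (78 and 85 cells). The points of such a correlation share the library and the read total of their cell.

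Levels differed widely between members. Rpl35, a protein near the mouth of the exit tunnel of the large subunit (chromosome 2, 39001580 to 39005624, minus strand, mm10), was the highest, with 6571 and 5609 RPKM in PLT, 5858 and 5201 RPKM in PEM, and 4005 and 2742 RPKM in MUL mice. It alone made 6.74% of the summed level. Rps18, of the head of the small subunit, had 2424 and 3742 RPKM in PLT, 4103 and 3940 RPKM in PEM, and 2253 and 2416 RPKM in MUL mice. Rps14, whose human gene lies in the region lost in the 5q- syndrome, followed with a mean of 2991 RPKM over the 6 mice, and Rps19, the gene most often mutated in Diamond-Blackfan anaemia, with 2636 RPKM. The neighbours Rps18 and Rps14, and Rps14 and Rps19, overlapped in their ranges over the mice. In all, 73 of the 85 genes had a mean of at least 100 RPKM in every mouse.

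At the other end, 6 members stayed under 20 RPKM in every mouse. Rpl26 and Rpl10l were listed at 0 in all 458 cells. Rpl10l, a paralog of the male germ line, Rpl39l, another such paralog, and Rpl3l, the paralog of heart and skeletal muscle, are not expected in blood cells, and Rpl39l and Rpl3l were at 1 RPKM or more in 6 and 1 cells. Rpl26, Rps27 and Rpl30 are general components of the ribosome, and their low values sit beside a limit of the mapping. In the annotated transcripts, stretches of 50 bases that occur in no other gene made up 28.7% of Rpl26, 1.35% of Rps27 and 23.6% of Rpl30. Rps27 had 1.35 and 5.27 RPKM in PLT, 5.7 and 0 RPKM in PEM, and 2.27 and 3.16 RPKM in MUL mice. Rpl30 had 6.83 and 10.8 RPKM in PLT, 5.08 and 3.49 RPKM in PEM, and 7.15 and 3.55 RPKM in MUL mice. How the authors counted reads that match several places is not given in the sources used here. Over the 85 genes the share of unique stretches had a median of 47.9% (range 1.35% to 100%). Of the 85, 82 shared stretches with another gene, and rho of that share with the level was -0.23. Rpl35, the highest, had 4.91% unique stretches, and Rpl34, one of the lowest with 13.2 and 16.3 RPKM in PLT, 12.8 and 28.8 RPKM in PEM, and 10.5 and 10.5 RPKM in MUL mice, had 62.1%. A level of a member with few unique stretches is therefore uncertain.

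**Figure D2:**
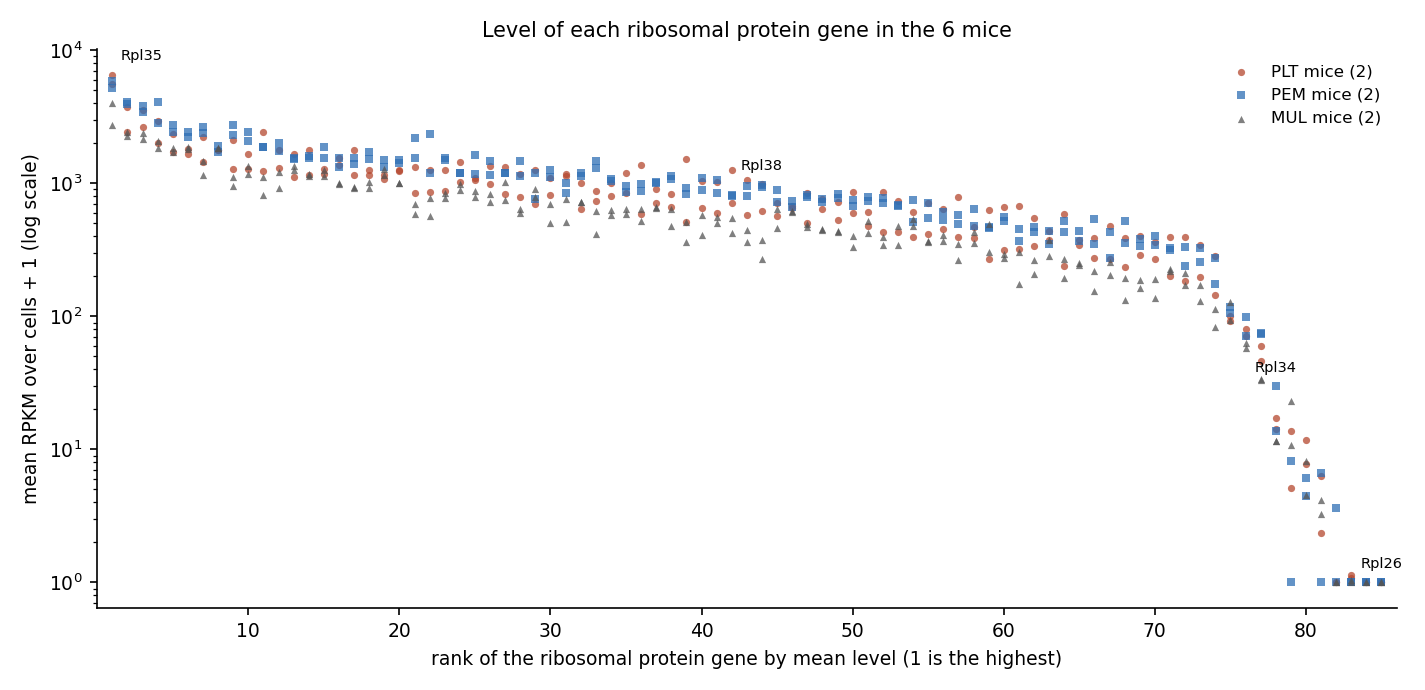
The mean RPKM + 1 over the cells of a mouse, on a log axis, is plotted for each of the 85 genes, placed by rank from the highest to the lowest mean with a few genes named; circles are PLT, squares PEM and triangles MUL mice. Triangles lie lowest for most genes, and the levels drop steeply over the last members, from Rpl34 to Rpl26.

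The comparison of PLT with MUL asks whether HSCs that restored platelets alone carry other levels of these mRNAs than multilineage HSCs. Most members had higher values in PLT: the log2 fold change was above 0 for 75 of the 81 tested, with a median of 0.52, where 41.6% of all 11337 tested genes were above 0 with a median of -0.18. None of the 81 passed the test (limma with Benjamini-Hochberg adjustment over all genes, lowest adjusted p = 0.48, Rpl38). Of all genes 0% were called higher, and 1 gene was called lower. At an unadjusted p under 0.05, 16 members were higher and 0 lower, where 2.44% of all genes were higher and 676 of the 11337 were lower. Both PLT mice lay above both MUL mice for 53 of the 81, and for 14.8% of all genes. With log2 values averaged over cells in place of RPKM, 1 member was higher at an unadjusted p and 14 were without overlap. The count of 16 was also 1 with no intensity trend in limma, and without single mice it was 2 (MUL mouse 2), 4 (PLT mouse 2), 8 (MUL mouse 1), 9 (either PEM mouse) and 49 (PLT mouse 1).

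Rpl38, a small protein of the large subunit known in mouse for its part in the translation of Hox mRNAs (chromosome 11, 114668524 to 114672331, plus strand, mm10), had the highest fold change. It had 615 and 981 RPKM in PLT, 979 and 942 RPKM in PEM, and 374 and 271 RPKM in MUL mice. Both PLT and both PEM mice lay above both MUL mice. The log2 fold change was 1.28 ± 0.33 (SE) in PLT minus MUL and 1.59 ± 0.33 in PEM minus MUL (limma, adjusted p = 0.48 and 0.868), and both missed the threshold. Rps21, of the small subunit, had 143 and 283 RPKM in PLT and 112 and 82.4 RPKM in MUL mice, a log2 fold change of 1.06 ± 0.44 (SE). Rpl23a, of the exit of the tunnel, had 712 and 1253 RPKM in PLT and 547 and 423 RPKM in MUL mice. In both genes PLT mouse 1 lay near the MUL mice and PLT mouse 2 far above them. The log2 fold change of Rpl23a was 0.97 ± 0.34, and adjusted p over all members was 0.48 or more in limma.

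Few members had lower values in PLT. Rplp0, which anchors the stalk that binds elongation factors, had 1674 and 1819 RPKM in PLT and 1889 and 1822 RPKM in MUL mice. Rpl3, of the peptidyl transferase region, had 1069 and 1163 RPKM in PLT and 1165 and 1280 RPKM in MUL mice. Rpl4, of the wall of the exit tunnel, had 1791 and 1783 RPKM in PLT and 1853 and 1837 RPKM in MUL mice. In each of the 3 both PLT mice lay below both MUL mice, by a small margin. They were the only ones of the 81 members to do so, where 2828 of all 11337 tested genes did. The log2 fold changes were -0.09 ± 0.24 for Rplp0, -0.13 ± 0.25 for Rpl3 and -0.05 ± 0.24 for Rpl4 (SE), and under median-ratio scaling those of Rplp0 and Rpl3 were 0.081 and 0.038, above 0.

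The comparison of PEM with MUL asks the same of HSCs that restored platelets, red cells and myeloid cells. It uses the same 2 MUL mice as the comparison above, so the 2 sets of values are not independent. The log2 fold change was above 0 for 77 of the 81 tested members, with a median of 0.74, where 47.6% of all genes were above 0 with a median of -0.04. None passed the test (limma, lowest adjusted p = 0.868), and 0% of all genes were called higher. At an unadjusted p under 0.05, 44 members were higher and 0 lower, where 2.8% of all genes were higher and 316 of the 11337 were lower. Both PEM mice lay above both MUL mice for 72 of the 81, and for 17.5% of all genes. With log2 values averaged over cells, 3 were higher at an unadjusted p. The count of 44 was 5 with no intensity trend, and without single mice it was 6 (MUL mouse 2), 11 (PEM mouse 1), 20 (MUL mouse 1 or PEM mouse 2) and 58 (either PLT mouse). The median percent of reads from the mitochondrial chromosome was 6.41% and 6.69% in PLT, 4.01% and 4.03% in PEM, and 6.06% and 5.34% in MUL mice, and its part in the differences was not tested. Without the cells that carried at least 3 neutrophil or 3 mature erythroid markers, the median was 0.63 in PEM minus MUL, 0.52 in PLT minus MUL and -0.11 in PLT minus PEM.

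After Rpl38, the members with the highest fold changes in PEM minus MUL encode very small proteins. Rps29, a zinc-binding protein of the small subunit (chromosome 12, 69157722 to 69159186, minus strand), had 2181 and 1544 RPKM in PEM and 699 and 586 RPKM in MUL mice. Rpl36, of the large subunit (chromosome 17, 56613416 to 56614243, plus strand), had 1462 and 1304 RPKM in PEM and 621 and 418 RPKM in MUL mice. Rpl37 had 520 and 358 RPKM in PEM and 195 and 131 RPKM in MUL mice. In all 3 both PEM mice were above both MUL mice, with log2 fold changes of 1.52 ± 0.32, 1.44 ± 0.30 and 1.43 ± 0.39 (SE). Rps28 had 2354 and 1187 RPKM in PEM and 782 and 572 RPKM in MUL mice, and Rpl41, whose coding sequence is the shortest of all members, had 2733 and 2314 RPKM in PEM and 1126 and 948 RPKM in MUL mice. Rps28 was far higher in PEM mouse 1 than in PEM mouse 2, and its log2 fold change was 1.32 ± 0.39. That of Rpl41 was 1.28 ± 0.31. These values rest on means over cells. On medians over cells they were 1.16 for Rps29, 0.95 for Rpl36 and 0.94 for Rps28. In cells with 1800 to 3000 detected genes they were 1.91 for Rps29 and 1.65 for Rps28, and on plate P2 1.82 for Rpl36. Rpl4 differed little, with 1914 and 1722 RPKM in PEM and 1853 and 1837 RPKM in MUL mice, and a log2 fold change of -0.02 ± 0.24. The MUL mice lay between the 2 PEM mice for Rpl4.

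PLT and PEM were compared directly as well. The log2 fold change was below 0 for 66 of the 81 members and above 0 for 15, with a median of -0.23, where 43.6% of all genes were above 0 with a median of -0.13. None passed the test in either direction (limma, lowest adjusted p = 0.564), as for 0% of all genes. At an unadjusted p under 0.05, 3 members were lower and 0 higher, where 5.88% of all genes were lower and 2.49% higher. Both PLT mice lay below both PEM mice for 25 members and above them for 2, where 21.9% of all genes lay below and 14.1% above. The share of members lower at an unadjusted p was thus no larger than that of all genes. Without overlap, a larger share of the members than of all genes lay below the PEM mice and a smaller share above them. This depended on the processing: the count of 25 was 4 with log2 values averaged over cells and 43 on plate P2. The sign of the median depended on PLT mouse 1: without it the median was 0.03, and without PLT mouse 2 it was -0.52.

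Those 3 were Rpl36, Rps29 and Rpl13. Rpl36 had 731 and 873 RPKM in PLT and 1462 and 1304 RPKM in PEM mice, a log2 fold change of -0.79 ± 0.30 (SE). Rps29 had 842 and 1326 RPKM in PLT and 2181 and 1544 RPKM in PEM mice, at -0.80 ± 0.32. Rpl13, of the large subunit, had 1287 and 1663 RPKM in PLT and 2438 and 2065 RPKM in PEM mice, at -0.62 ± 0.27. In each of them both PLT mice lay below both PEM mice. Rps25, which in yeast and human cells is needed for translation from some viral internal entry sites, had higher values in PLT, with 1172 and 1138 RPKM in PLT, 844 and 1005 RPKM in PEM, and 757 and 516 RPKM in MUL mice. The groups did not overlap for Rps25, and its log2 fold change in PLT minus PEM was 0.33 ± 0.29. The only other tested member with both PLT mice above both PEM mice was the weakly detected Rpl30.

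**Figure D3:**
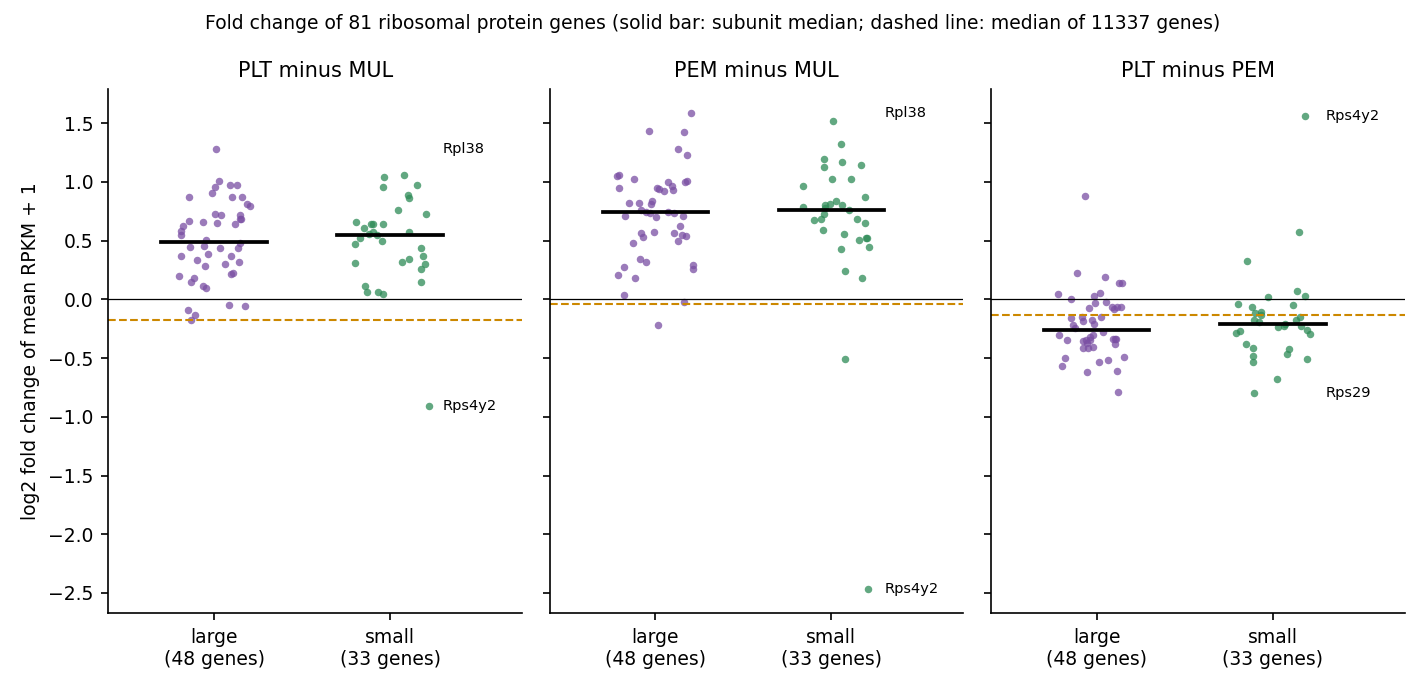
Log2 fold changes of the tested members are plotted for PLT minus MUL, PEM minus MUL and PLT minus PEM, by subunit, with solid bars at the subunit medians, a dashed line at the median of all tested genes and the extremes named. Most members lie above 0 in the comparisons with MUL (75 and 77 of 81) and below 0 in PLT minus PEM (66 of 81); Rps4y2 lies apart in all 3.

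Across the 6 mice the lowest place was shared by most members, and the highest was not. A MUL mouse was the lowest for 68 of the 81 and MUL mouse 2 for 55. PEM mouse 1 was the highest for 34, PLT mouse 2 for 33 and PEM mouse 2 for 10. PLT mouse 2 lay above PLT mouse 1 for 77 members, in some by little (Rpl6, 1270 and 1244 RPKM), and the spread of the PLT group was wide. The 2 PLT mice also differed in experiment and in median detected genes (2596 and 1869). Counts of this kind were not made over all genes, so no background share is given. In PLT minus MUL the median of the members was 0.76 without PLT mouse 1 and 0.25 without PLT mouse 2.

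The stalk of the large subunit, which recruits the elongation factors, is made of Rplp0, Rplp1 and Rplp2. Rplp1 had 991 and 1346 RPKM in PLT, 1481 and 1152 RPKM in PEM, and 831 and 718 RPKM in MUL mice. Rplp2 had 272 and 386 RPKM in PLT, 540 and 348 RPKM in PEM, and 219 and 155 RPKM in MUL mice. Both were lowest in the 2 MUL mice without overlap, with log2 fold changes of 0.58 ± 0.29 and 0.81 ± 0.37 in PLT minus MUL. Rplp0, with 2420 and 2218 RPKM in PEM mice, exceeded the MUL mice only in that group, and its log2 fold change in PEM minus MUL was 0.32 ± 0.24. The level of Rplp0 was therefore 1674 to 2420 RPKM over the mice, above that of its partners in each of them.

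Rpl5 and Rpl11 form with the 5S RNA a particle that, outside the ribosome, binds the p53 ubiquitin ligase Mdm2. Rpl5 had 1051 and 1102 RPKM in PLT, 1626 and 1170 RPKM in PEM, and 876 and 788 RPKM in MUL mice. Rpl11 had 666 and 831 RPKM in PLT, 1129 and 1073 RPKM in PEM, and 636 and 475 RPKM in MUL mice. Both had all 4 PLT and PEM mice above the MUL mice. Mdm2, no member, had 16.9 and 17.4 RPKM in PLT, 32.2 and 14.5 RPKM in PEM, and 43.4 and 30 RPKM in MUL mice, with a log2 fold change (PLT minus MUL) of -1.03 ± 0.57 (SE).

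Rps27a is made as a fusion with ubiquitin. It had 599 and 1024 RPKM in PLT, 1060 and 846 RPKM in PEM, and 558 and 505 RPKM in MUL mice, with log2 fold changes of 0.56 ± 0.33 in PLT minus MUL and 0.83 ± 0.33 in PEM minus MUL. Fau, whose name falls outside the rule, encodes a small subunit protein fused to a ubiquitin-like one. It had 853 and 660 RPKM in PLT, 958 and 768 RPKM in PEM, and 573 and 477 RPKM in MUL mice. All PLT and PEM mice lay above the MUL mice for Fau, and the log2 fold change (PLT minus MUL) was 0.52 ± 0.29 (SE). Gnb2l1, the older symbol of the small subunit component Rack1, had a log2 fold change (PLT minus MUL) of 0.44 ± 0.31 and 0.46 ± 0.31 in PEM minus MUL.

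Of 18 genes listed as mutated in Diamond-Blackfan anaemia in humans, 17 were tested and none passed the test. In PLT minus MUL, 17 were above 0, with a median of 0.52. In PEM minus MUL, 16 were above 0 and 1 below, with a median of 0.81, and in PLT minus PEM, 4 above and 13 below, with a median of -0.31. These medians were close to those of all members (0.52, 0.74 and -0.23). Rps19, the best known of them, had 2021 and 2936 RPKM in PLT, 4107 and 2836 RPKM in PEM, and 2086 and 1831 RPKM in MUL mice. PLT mouse 1 lay among the MUL mice for Rps19, and the log2 fold change was 0.32 ± 0.30 in PLT minus MUL and 0.80 ± 0.30 in PEM minus MUL.

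Of 8 paralogs 5 were tested, and none passed the test. Rps27l, a paralog of Rps27 whose human gene is a target of p53, had 515 and 1530 RPKM in PLT, 834 and 920 RPKM in PEM, and 511 and 361 RPKM in MUL mice. It was far above Rps27 itself in every mouse, and highest in PLT mouse 2. Its log2 fold change was 1.05 ± 0.48 in PLT minus MUL. Rpl36al, a paralog of Rpl36a, had 322 and 672 RPKM in PLT, 451 and 370 RPKM in PEM, and 305 and 175 RPKM in MUL mice, at 1.01 ± 0.43. Rpl22l1, a paralog of Rpl22, had 270 and 630 RPKM in PLT, 463 and 473 RPKM in PEM, and 491 and 305 RPKM in MUL mice, and Rpl7l1, a paralog of Rpl7, 91.6 and 99.8 RPKM in PLT, 104 and 117 RPKM in PEM, and 92.4 and 126 RPKM in MUL mice. For both of these the PLT and MUL mice overlapped, as did the PEM and MUL mice, and for Rpl7l1 both PLT mice lay below both PEM mice. They had log2 fold changes of 0.09 ± 0.44 and -0.17 ± 0.36 in PLT minus MUL.

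Rps4y2, a name that the annotation gives as Rps4l, departed most. It had 4.14 and 12.9 RPKM in PLT, 0.00252 and 7.13 RPKM in PEM, and 9.88 and 22 RPKM in MUL mice. Only 29 cells had 1 RPKM or more, so a mean rests on few cells, and the annotation calls it a processed pseudogene on chromosome 6 (148354656 to 148355598, plus strand). Its log2 fold changes, -0.91 ± 1.11 in PLT minus MUL, -2.47 ± 1.11 in PEM minus MUL and 1.56 ± 1.11 in PLT minus PEM, lay outside the range set by the quartiles of the members in all 3. With 25 cells drawn from each mouse, the value in PLT minus MUL was 1.46, of the opposite sign. Rpl30 and Rps27 lay outside that range in PEM minus MUL (-0.22 and -0.51) and in PLT minus PEM (0.88 and 0.57), and were detected at 1 RPKM or more in 117 and 26 cells.

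Members also differed in how far they followed the other members from cell to cell. For each, its rank correlation with the summed level of the other members was computed over the cells of a mouse, and the median over the 6 mice taken. Rps19 had the highest median rho, 0.67, and Rps18 had 0.62. Rpl36al, Rpl7l1 and Rpl34 had the lowest among the members with at least 10 RPKM in every mouse, at 0.043, 0.026 and 0.048. They were detected at 1 RPKM or more in 343, 458 and 140 cells. All such points share the depth of their cell.

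Fold changes went with the length of the member, more with coding length than with transcript length. Over the 76 tested members that are not paralogs, Spearman's rho of the log2 fold change with the coding length was -0.64 in PLT minus MUL, -0.63 in PEM minus MUL and 0.09 in PLT minus PEM. With the length of the annotated transcript it was -0.42, -0.45 and 0.04. The 25 shortest (75 to 399 bases of coding sequence) had medians of 0.67 (PLT minus MUL) and 0.95 (PEM minus MUL), and the 25 longest (582 to 1257 bases) 0.26 and 0.52. Coding length went with the fold change outside the members too. Over the 971 other genes averaging 100 RPKM or more, its rho was -0.41, -0.32 and -0.11 in the 3 comparisons. Over all 10694 other genes it was -0.11, -0.05 and -0.06. Among those abundant other genes, 218 of the length of the short members had medians of 0.48 in PLT minus MUL and 0.39 in PEM minus MUL, and 408 of the length of the long members 0.06 and -0.03. In both comparisons these medians were higher for the members than for the abundant other genes of like length. The gap was smaller in PLT minus MUL than in PEM minus MUL. In PLT minus MUL it was about alike for short genes (0.67 and 0.48) and long genes (0.26 and 0.06). The SD between mice of the median log2 level of the members, pooled over groups, was 0.28. The part of length in the differences was not tested.

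**Figure D4:**
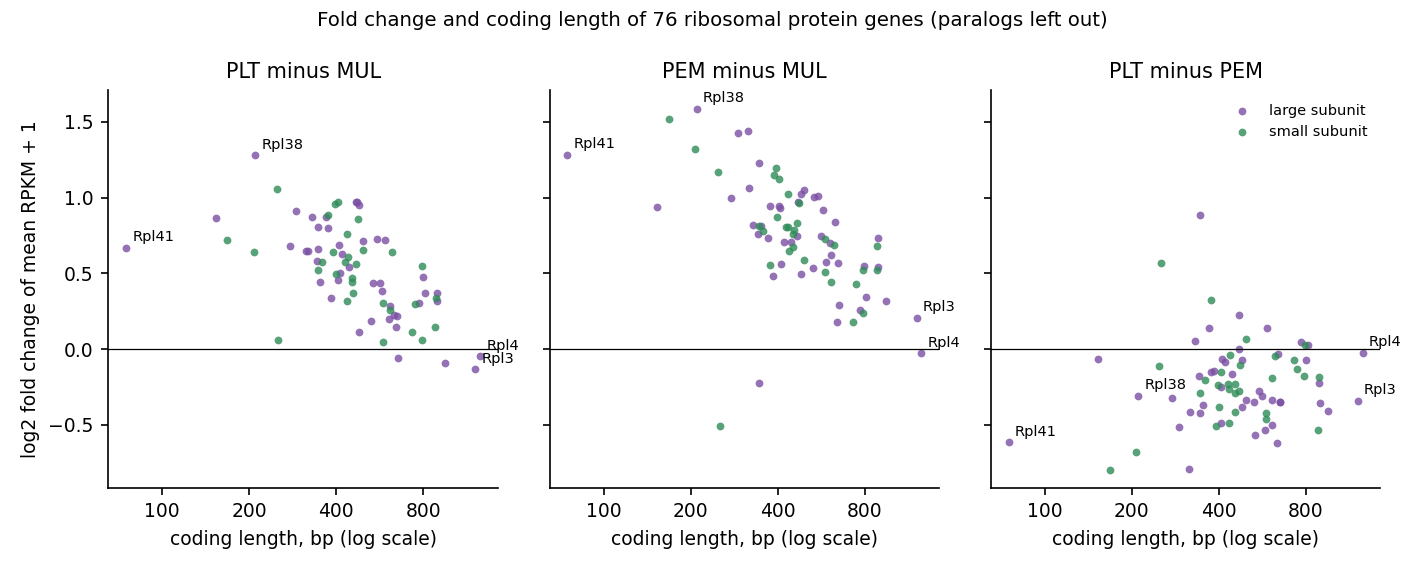
The log2 fold change of each of 76 tested members (paralogs left out) is plotted against its coding length in bases on a log axis, coloured by subunit, with 1 panel per comparison. Short members lie higher than long ones in PLT minus MUL and PEM minus MUL (rho -0.64 and -0.63 over 76 members) and show no such order in PLT minus PEM (rho 0.09).

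Within a mouse, the median log2 level of the 25 short members lay below that of the 25 long ones in all 6. The difference was -1.03 and -0.81 in PLT, -0.74 and -1.03 in PEM, and -1.25 and -1.54 in MUL mice. It was widest in the 2 MUL mice. For the abundant other genes of these lengths it was 0.18 and 0.73 in PLT, 0.32 and 0.39 in PEM, and -0.04 and -0.11 in MUL mice, again lowest in the MUL mice.

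The number of genes detected in a cell went with how many members were found, and its relation to their summed level differed between mice and plates. The number of members at 1 RPKM or more had medians of 69 and 77 in PLT, 77 and 76 in PEM, and 72 and 73 in MUL mice. Its rho with the authors' count of detected genes was 0.79 and 0.62 in PLT, 0.69 and 0.83 in PEM, and 0.85 and 0.83 in MUL mice. The rho of the summed level with detected genes was 0.08 and -0.28 in PLT, -0.15 and -0.17 in PEM, and -0.25 and -0.02 in MUL mice, over 93 and 84, 93 and 25, and 78 and 85 cells. Within plate P1 it was 0.13 and -0.71 in PLT, -0.32 and -0.43 in PEM, and -0.43 and 0.030 in MUL mice, and within plate P2 it was -0.17 and -0.16 in PLT, -0.085 and 0.10 in PEM, and -0.040 and -0.034 in MUL mice. The strongest of these was that of PLT mouse 2 on plate P1. Cells of a mouse share their plates, and both measures share the reads of the cell. Detected genes in turn had a rho with mapped reads of -0.26 and -0.33 in PLT, -0.27 and -0.69 in PEM, and -0.60 and -0.41 in MUL mice, so cells with more reads had fewer detected genes.

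Rpl35, the most abundant, had a rho with detected genes of -0.25 and -0.54 in PLT, -0.34 and -0.06 in PEM, and -0.55 and -0.36 in MUL mice, below 0 in all 6. Between pairs of members the median rho over cells was 0.057 and 0.16 in PLT, 0.23 and 0.33 in PEM, and 0.078 and 0.18 in MUL mice (2628 pairs of 73 members). It was higher in the PEM mice, which also hold 8 of the 9 cells with the highest sums.

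**Figure D5:**
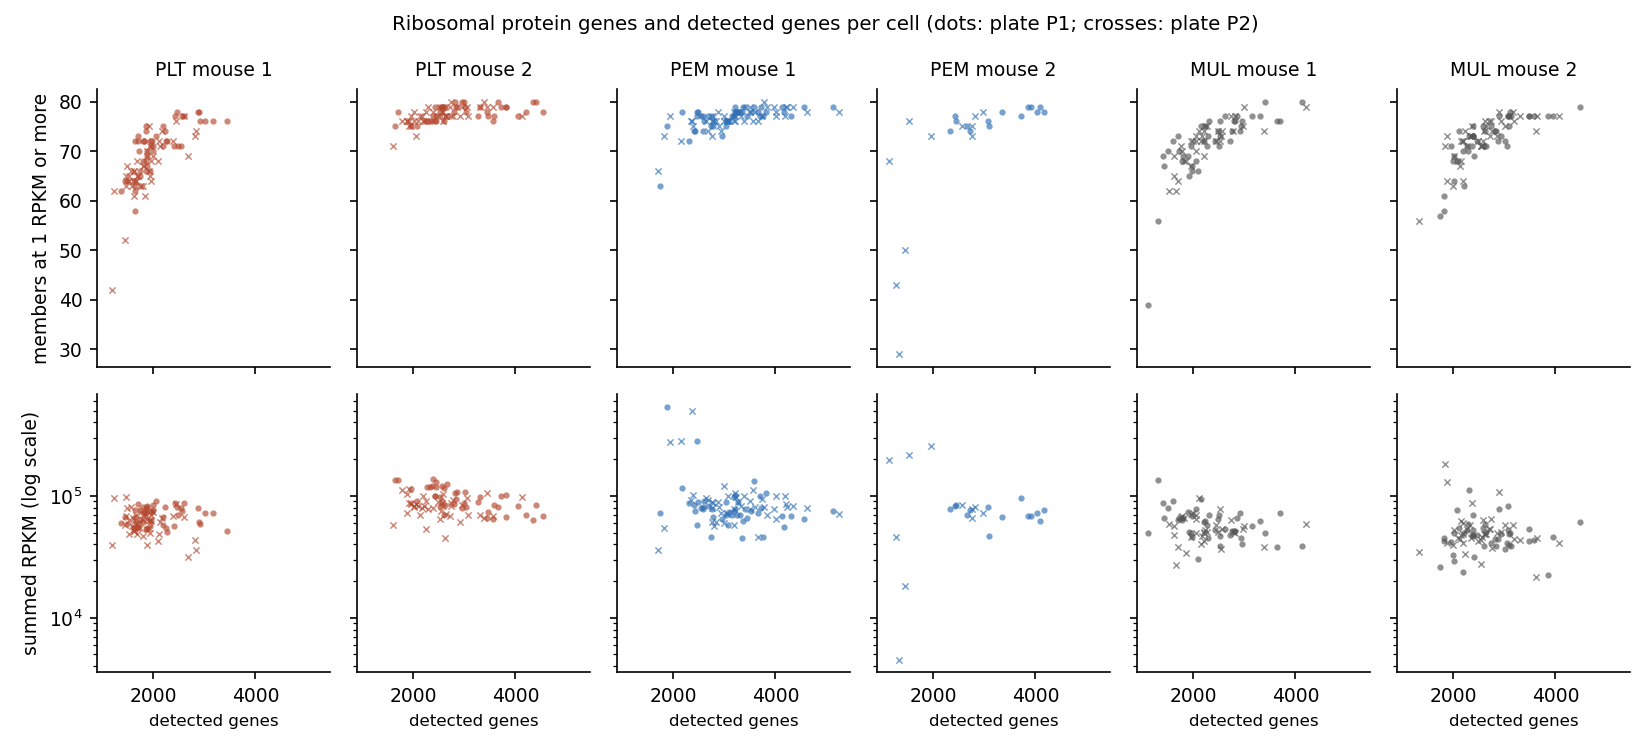
Each mark is a cell (dots for plate P1, crosses for plate P2), placed by the authors' count of detected genes, with 1 column of panels per mouse; the upper row gives the number of members at 1 RPKM or more and the lower row their summed RPKM on a log axis. The number of members climbs with detected genes (rho from 0.62 to 0.85) and the rho of the sum runs from -0.28 to 0.08 over both plates, and from -0.71 to 0.13 on plate P1.

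The genes that make or use ribosomes were set beside the members, from lists drawn up by function. Of 56 tested ribosome biogenesis genes, 34 were above and 22 below 0 in PLT minus MUL with a median of 0.19, and 38 and 18 in PEM minus MUL with a median of 0.16; none passed the test. Nhp2, a protein of the H/ACA particles that modify ribosomal RNA, had 178 and 279 RPKM in PLT, 130 and 158 RPKM in PEM, and 55.6 and 81.4 RPKM in MUL mice. All PLT and PEM mice lay above the MUL mice, and the log2 fold change in PLT minus MUL was 1.71 ± 0.39 (limma, adjusted p = 0.471). Mycn, a factor that drives growth genes, had 222 and 142 RPKM in PLT, 197 and 97.0 RPKM in PEM, and 71.6 and 25.9 RPKM in MUL mice, at 2.01 ± 0.57. Its relative Myc, named after its values were seen, had 81.9 and 88.8 RPKM in PLT, 127 and 140 RPKM in PEM, and 126 and 154 RPKM in MUL mice, at -0.70 ± 0.34. Among the lowest in PLT minus MUL were 2 weakly expressed genes. Mlst8, a subunit of the TOR complexes, had 0.0206 and 0.000843 RPKM in PLT, 3.85 and 2.14 RPKM in PEM, and 5.12 and 4 RPKM in MUL mice, at -2.45 ± 0.72 (limma, adjusted p = 0.48). Rrp9, which binds the U3 RNA, had 0.148 and 7.97 RPKM in PLT, 34.2 and 17.4 RPKM in PEM, and 5.9 and 22.9 RPKM in MUL mice, at -2.0 ± 1.09. The 12 elongation genes had medians of 0.16, 0.30 and -0.25 in the 3 comparisons, the 16 genes of RNA polymerase I and its factors 0.20, 0.48 and -0.38, and the 15 genes of the TOR and La-related control of these mRNAs 0.19, -0.25 and 0.07. None of them passed the test. Eif5a, which relieves stalled ribosomes, had 530 and 407 RPKM in PLT, 856 and 888 RPKM in PEM, and 591 and 675 RPKM in MUL mice, with a log2 fold change of -0.91 ± 0.28 in PLT minus PEM, and Xpo1, which exports ribosomal subunits from the nucleus, 42.9 and 51.3 RPKM in PLT, 20.5 and 11.5 RPKM in PEM, and 22.2 and 14.2 RPKM in MUL mice, at 1.55 ± 0.54.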

How the data were processed

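Single HSCs were sequenced as mRNA libraries, 1 sample per cell. The authors deposited 1 table of RPKM values for 458 cells and a table of cell information with each cell's mouse, plate, number of detected genes, count of mapped reads and percent of mitochondrial reads. Per the submitters' processing notes, TopHat, featureCounts and build mm10 were used; their versions are not given in the sources used here. How reads matching several genes were counted is not given either. RPKM is no count, so no count test was run.

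Cells are not replicates, so RPKM values were averaged per mouse, and mice (numbered in accession order) were compared, 2 per group, with no covariate. The 11337 genes whose mean reached 1 RPKM in 2 or more of the 6 mice were tested on log2(mean RPKM + 1) with limma 3.58.1 in R 4.3.3 (intensity trend, all 3 groups in 1 fit, Benjamini-Hochberg adjustment over all genes, threshold 0.05); the pseudocount of 1 RPKM understates changes of low genes. The fit was tested on simulated data. The p-values and SE use a variance that limma draws in part from all tested genes of like level (8.33 degrees of freedom in total). They therefore do not measure the spread of a gene between its own mice alone. Each mouse is 1 clone.

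Named members were the 6 highest and 4 lowest fold changes of each comparison, the 5 highest and 5 lowest levels, and the stalk, paralog, ubiquitin-fusion, 5S and departing members; others were the extremes of the fixed lists. Some of these members are not reported here. The members, lists and tests were chosen with earlier results of these data known. Lengths, positions and shared stretches of 50 bases came from GENCODE M21 on mm10, and promoters from RefSeq. Alternatives covered pseudocount, filter, averaging, scaling, cells used, plates and leaving out each mouse. Mitochondrially encoded genes were not analysed here.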

Additional observations from a re-analysis of the deposited data

How the results depend on the processing

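No paired analysis was possible because the numbers of the mice follow accession order, so equal numbers do not link mice of different groups. The count of members past the adjusted threshold was 0 in each of the 3 comparisons under every alternative run. The median log2 fold change ran from 0.27 (quantile normalization) to 0.69 (median-ratio scaling) in PLT minus MUL and from 0.46 to 0.89 in PEM minus MUL; in PLT minus PEM it was 0.026 on plate P1 and -0.44 on plate P2. The median of all genes in PLT minus MUL was -0.18, and -0.04 under median-ratio scaling. Leaving out 1 mouse, which leaves a lone mouse assumed to vary like the other groups, gave medians of 0.25 to 0.76, 0.65 to 0.82 and -0.52 to 0.031, and log2 ratios of the summed level of 0.24 to 0.70, 0.64 to 0.81 and -0.48 to -0.021. The log2 ratio of PLT to PEM was 0.0055 on plate P1, -0.50 on plate P2 and -0.45 in cells with 1800 to 3000 detected genes, where that of PEM to MUL was 0.95. Large minus small subunit was -0.50 in PLT over all members, and in PEM -0.32 on medians over cells and -0.54 on plate P2. Members higher at an unadjusted p were 16 in PLT minus MUL (1 on means of log2 values, 30 under median-ratio scaling) and 44 in PEM minus MUL (3 to 56).

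The correlation with detected genes was -0.021 (Pearson) and -0.17 (plate P2) in PLT mouse 1, -0.71 (P1) in PLT mouse 2 and -0.32 (P1) in PEM mouse 1. In PEM mouse 2 it was 0.16 (Pearson), -0.43 (P1), 0.10 (P2), 0.061 (given mapped reads) and -0.47 (without cells with mature-cell markers). It was -0.43 (P1) and -0.040 (P2) in MUL mouse 1, and 0.030 (P1) and 0.18 (without marker cells) in MUL mouse 2.

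Of the values of single members, 598 kept their sign or side and 25 changed sign. In PLT minus MUL these were Rps4y2 (1.46 with 25 cells per mouse), Rpl3 (0.038) and Rplp0 (0.081) under median-ratio scaling, and Rpl7l1 (0.12 on P2, -0.40 to 0.049 leaving out a mouse). In PEM minus MUL they were Rpl4 (0.050 with 25 cells, 0.027 in the 1800 to 3000 range, 0.067 on medians over cells, 0.0025 under median-ratio scaling, 0.053 on P1, 0.047 without marker cells, -0.100 to 0.053 leaving out a mouse), Rps27 (0.47 with 25 cells, 0.015 on means of log2 values, 0.46 on P2, -1.88 to 0.86 leaving out a mouse) and Rpl30 (0.14 on means of log2 values, -0.64 to 0.20 leaving out a mouse). In PLT minus PEM they were Rps27 (-1.55 with 25 cells, -0.13 on P2, -0.80 to 1.94 leaving out a mouse), Rpl23a (-0.053 on means of log2 values, -0.18 to 0.63 leaving out a mouse) and Rpl36al (-0.34 to 0.72 leaving out a mouse). The cause was not tested. With 2 mice per group, and 25 cells in PEM mouse 2, precision is limited by the number of mice.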
